A study of Mus musculus with 2 samples.

Results

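The Wnt ligands, their receptors and their modulators were examined in 2 RNA samples of the embryonic mouse heart. A probe was taken as a member when its gene symbol in the platform annotation began with Wnt, Fzd, Sfrp, Dkk or Rspo followed by a digit, or was Frzb, Wif1, Lrp5, Lrp6, Axin1, Axin2, Lef1, Tcf7, Tcf7l1 or Tcf7l2. This gave 93 of the 45281 probes, for 51 of 19057 gene symbols. Tcf7 was not analysed here, since no probe carried that symbol. Fzd10os, which lies on the strand opposite Fzd10 and is no receptor gene, fell under the rule by its name and was kept apart in the description.

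Wnt proteins are secreted, lipid-modified ligands. On the receiving cell they bind a Frizzled receptor, and in the canonical branch also the coreceptor Lrp5 or Lrp6, after which beta-catenin is spared from the Axin-containing complex that destroys it and acts with TCF/LEF factors in the nucleus. R-spondins raise the signal by keeping Frizzled receptors on the cell surface, whereas sFRPs, Frzb and Wif1 bind the ligands and Dickkopf proteins mostly act on the coreceptors. The pathway is known for its roles in heart induction, outflow tract and valve formation and in the epicardium, the cell layer that covers the heart.

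Both samples came from hearts at E11.5, a midgestation stage, of mice carrying the Tcf21lacZ allele, which places lacZ under a gene of epicardial and mesenchymal cells, on a mixed C57BL/6, 129 and CD-1 background. One sample held all cells dissociated from the heart and the other the lacZ-positive epicardial cells, so the allele is shared by both and no heart without it was measured. The sources used here do not give how the positive cells were separated or how many hearts went into a sample. Each group had 1 Illumina bead array, so no test between groups was possible: differences are described by size, and the number of arrays limits their precision.

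The arrays had a median raw intensity of 57.6 for total heart and 63.5 for lacZ-positive cells, over a median of 43 beads per probe. A probe with a detection p-value under 0.01 was called detected, and 9713 genes had such a probe on at least 1 array. Marker genes were set beside the label, from lists chosen with earlier results of these data known. Of 10 detected epicardial and mesothelial markers, 9 stood past 2-fold on the higher side for the lacZ-positive sample, and 0 were lower. Of all detected genes, 3.82% were past 2-fold higher. So were 5 of 8 markers of cushion and valve mesenchyme and 6 of 9 of fibroblast-like mesenchyme, so the markers do not single out epicardial cells. Tcf21, the gene that carries lacZ here, had a log2 ratio of 1.34 and is no independent check of the label. Tbx18 was detected on neither array, and no probe carried the symbol Wt1. Of 13 detected cardiomyocyte markers, 9 were at least 2-fold lower, but all 13 were still detected in the lacZ-positive sample, so cardiomyocyte transcripts were not absent from it.

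Promoter windows of 5 members are shown, as given by RefSeq on GRCm38.p6, from 250 bases before to 50 after a transcript start, 5′ to 3′ on the gene's strand. Rspo1 and Fzd5 were members past 2-fold, Axin2 is a widely used readout of the canonical branch, and Wnt11 and Wnt5b were the detected members with a match to a TCF/LEF motif. Capitals mark the match to CTTTGAA or CTTTGAT, searched on both strands.
Rspo1 (chr4:124986180-124986479, strand +): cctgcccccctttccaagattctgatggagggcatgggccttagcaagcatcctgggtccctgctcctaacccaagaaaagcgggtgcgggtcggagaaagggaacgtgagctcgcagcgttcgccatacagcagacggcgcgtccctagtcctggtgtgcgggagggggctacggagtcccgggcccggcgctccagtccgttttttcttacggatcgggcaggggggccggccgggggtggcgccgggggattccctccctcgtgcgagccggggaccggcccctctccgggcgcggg
Fzd5 (chr1:64737701-64738000, strand -): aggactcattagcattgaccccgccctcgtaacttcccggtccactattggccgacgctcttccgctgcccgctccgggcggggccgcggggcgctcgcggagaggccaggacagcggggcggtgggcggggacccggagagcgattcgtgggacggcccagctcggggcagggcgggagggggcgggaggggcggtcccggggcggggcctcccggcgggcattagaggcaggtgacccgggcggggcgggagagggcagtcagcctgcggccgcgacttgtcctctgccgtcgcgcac
Axin2 (chr11:108920099-108920398, strand +): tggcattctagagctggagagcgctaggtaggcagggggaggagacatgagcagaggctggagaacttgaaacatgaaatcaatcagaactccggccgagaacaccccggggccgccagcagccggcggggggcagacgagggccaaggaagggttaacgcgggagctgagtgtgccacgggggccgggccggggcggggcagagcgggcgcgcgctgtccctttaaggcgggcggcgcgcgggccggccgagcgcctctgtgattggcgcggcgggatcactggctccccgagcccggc
Wnt11 (chr7:98834862-98835161, strand +): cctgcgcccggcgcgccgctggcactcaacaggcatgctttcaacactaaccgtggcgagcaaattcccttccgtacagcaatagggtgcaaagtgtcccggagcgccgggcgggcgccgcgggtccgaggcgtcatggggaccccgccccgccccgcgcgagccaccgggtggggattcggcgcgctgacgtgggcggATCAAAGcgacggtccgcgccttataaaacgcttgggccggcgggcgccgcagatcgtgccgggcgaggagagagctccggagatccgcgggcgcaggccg
Wnt5b (chr6:119449337-119449636, strand -): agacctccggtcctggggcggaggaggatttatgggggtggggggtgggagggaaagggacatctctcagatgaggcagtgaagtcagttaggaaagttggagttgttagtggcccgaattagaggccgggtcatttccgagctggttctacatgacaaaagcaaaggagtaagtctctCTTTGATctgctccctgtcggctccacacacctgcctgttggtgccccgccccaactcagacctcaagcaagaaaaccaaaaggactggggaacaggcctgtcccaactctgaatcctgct

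Rspo1, Fzd5 and Axin2 held no such match in these windows. The Wnt11 match lay on the opposite strand with its first base 51 bases before one of its starts, and the Wnt5b match on the gene's own strand 71 bases before one of its starts. Of 40 windows of members, 3 held a match (7.5%), the other one being in Dkk1. Among all 32851 windows the share was 8.65%, so the motif was about as frequent in members as elsewhere. A RefSeq window was matched to 33 of the 51 members, and Wnt7b, Rspo3, Wnt5a and Lrp5 were among those without. A match is a run of letters and says nothing on binding.

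Of the 51 members, 30 were detected on at least 1 array (58.8%), against 51.0% of all named genes. Of the 30, 25 were detected on both arrays, 4 in lacZ-positive cells only and 1 in total heart only. Over all 9713 detected genes, 5.83% were detected in lacZ-positive cells only and 3.88% in total heart only. The 2-fold line was passed on the higher side by 1 member, the agonist Rspo1, and on the lower side by 2, the ligand Wnt7b and the receptor Fzd5. Of all 9713 genes 3.82% passed it on the higher side and 6.44% on the lower, 10.3% in all, so the members' shares of 3.3% and 6.7% were near the background. In such samples fewer cells of a type and less RNA per cell cannot be told apart.

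Most members differed by less than 2-fold, and more of them leaned toward the lacZ-positive sample than away from it. The median log2 ratio, lacZ-positive minus total heart, was 0.29 over the 30 members and 0.044 over all detected genes, and 0.23 and 0.025 with genes detected on 1 array at their bounds. It was above 0 for 23 of 30 members (76.7%), against 54.2% of all detected genes. Among the 23 were Fzd1, Wnt11, Wif1 and Lef1, which passed the detection limit in lacZ-positive cells only and could hardly have come out lower. Wnt6, detected in total heart only, could hardly have come out higher. Below a mean log2 signal of 8, 16 of 21 members (76.2%) and 53.0% of all genes were above 0, and at or above it 7 of 9 members (77.8%) and 55.2% of all genes. With no normalization between arrays the median of all genes moved to 0.42, and 27 of 30 members and 79.7% of all genes were above 0, with Wnt9b, Rspo3, Fzd6 and Tcf7l2 turning positive. Relative to the median of all genes, 22 of 30 members were higher both with and without that normalization. With no detection filter the members' median was 0.079, and 33 of 51 members (64.7%) and 50.4% of all genes were above 0. These counts describe a pair of arrays and carry no test.

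The difference between 2 probes of the same gene gave the spread between probes. Its SD was 0.25 per probe on the log2 scale over 2145 genes. Both probes were read on the same 2 arrays, so this SD holds no spread between arrays, labellings or isolations. The same SD was used for bright and dim probes. Among the 25 members detected on both arrays, 5 lay past 2 such SDs, a log2 size of 0.50, on the higher side (20.0%, against 13.7% of the 8770 genes detected on both). These were Rspo1, Wnt5b, Lrp5, Fzd10os and Tcf7l1. On the lower side lay 2, Wnt7b and Fzd5 (8.0%, against 13.0%). The remaining 18 were within that spread. These counts are small and carry no test. Fzd10os fell within it at 0.43 without background correction, 0.44 with an offset of 50 and 0.41 in the deposited processed values. Rspo1, Wnt5b, Lrp5 and Tcf7l1 stayed past it in these settings. The SD of 0.25 came from the main setting and was not computed anew for them. With no normalization between arrays Wnt5b, Fzd1, Lrp5, Wnt11 and Tcf7l1 also passed 2-fold on the higher side at their measured values. In that setting 1020 of all 9713 detected genes passed it, against 371 in the main analysis. Relative to the median of all genes in that setting, 0 of 30 members did so.

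**Figure D1:**
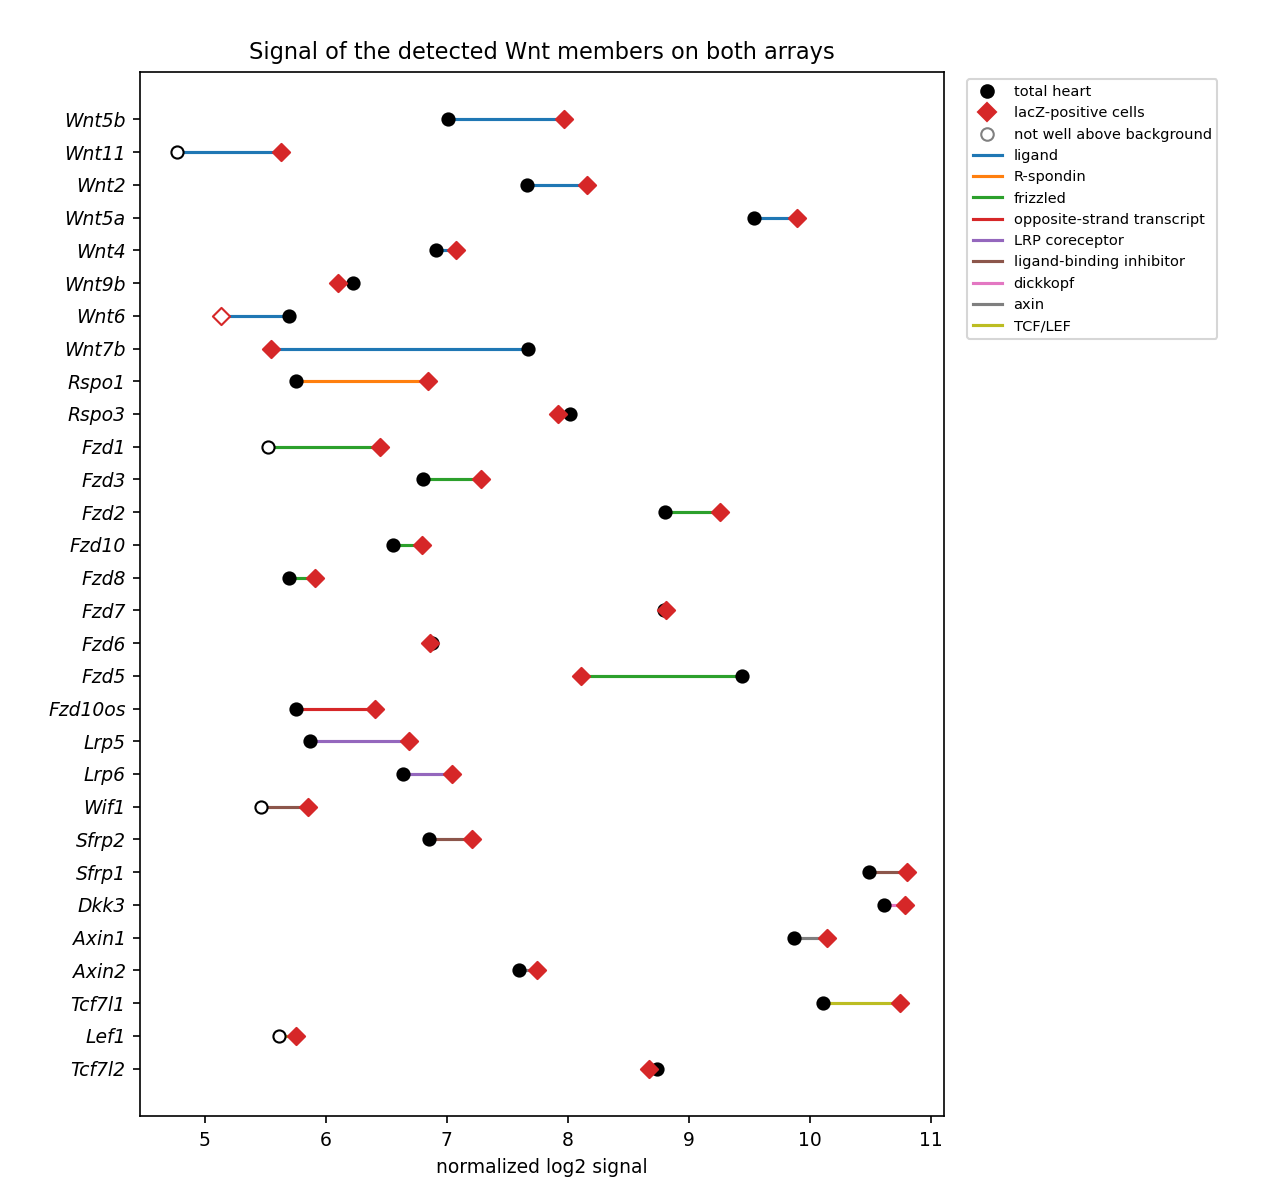
Normalized log2 signal (x axis) of the 30 detected members, grouped by role, on the total heart array (black circles) and the lacZ-positive array (red diamonds); open marks were not well above background, and each line joins the 2 arrays for 1 gene. The longest line runs left from total heart for Wnt7b, from 7.67 to 5.55. Levels of different genes come from different probes and are not compared.

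**Figure D2:**
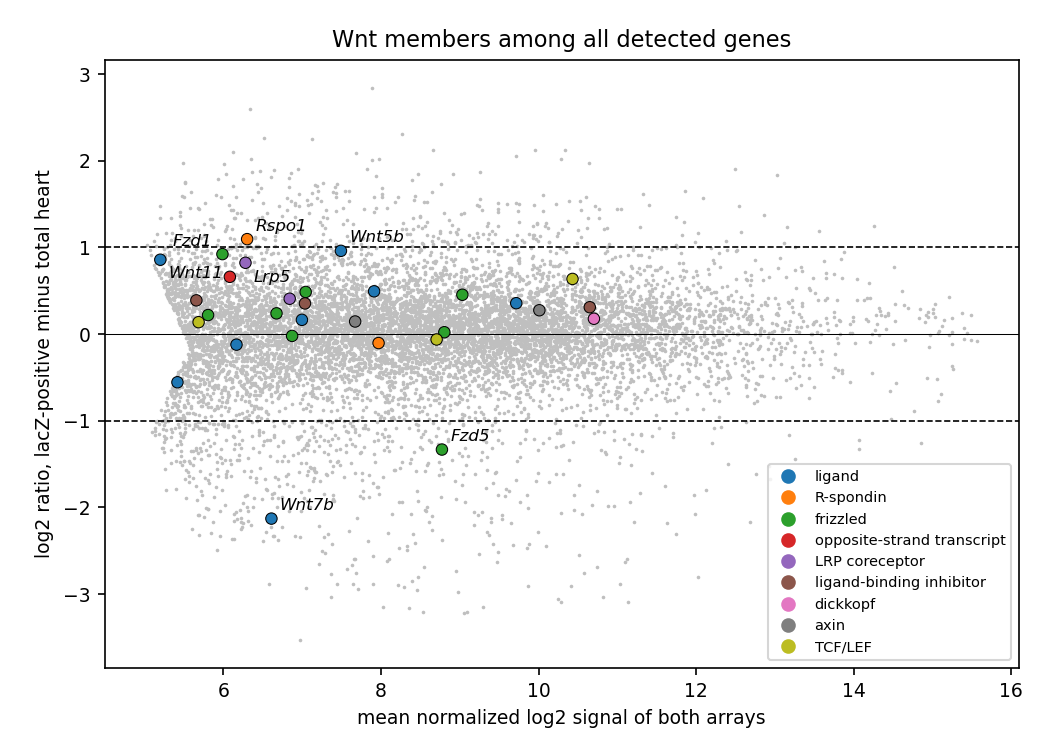
Log2 ratio, lacZ-positive minus total heart (y axis), against the mean log2 signal of both arrays (x axis) for all 9713 detected genes (grey) and the 30 members (coloured by role); dashed lines mark 2-fold. Rspo1 lies above the upper line, Fzd5 and Wnt7b below the lower one.

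Of 19 Wnt ligand genes, 8 were detected, and they lay on both sides of 0 with a median log2 ratio of 0.26. Wnt7b, a ligand that in the mouse embryo is made by the epithelium of the developing lung, had a raw intensity of 212 ± 7.88 (bead standard error) in total heart and 88.5 ± 3.59 in lacZ-positive cells. Raw intensities are given before, and log2 ratios after, background correction and normalization, so they need not point the same way. Wnt7b was 4.37-fold lower in lacZ-positive cells, at a log2 ratio of -2.13 ± 0.12, the lowest among the members and at percentile 1.11 of all detected genes. In lacZ-positive cells this probe was close to background, at a detection p-value of 0.00855. A second Wnt7b probe was detected on neither array.

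Wnt5b, which signals largely without beta-catenin, had the highest ratio among the ligands detected on both arrays. Its raw intensity was 147 ± 9.38 in total heart and 321 ± 15.1 in lacZ-positive cells, and its log2 ratio of 0.96 ± 0.14 was just under 2-fold. Its relative Wnt5a, needed in the mouse for outflow tract formation, was read by 2 detected probes, and both were higher in lacZ-positive cells. The brighter Wnt5a probe gave 670 ± 22.1 in total heart and 1132 ± 30.5 in lacZ-positive cells, a log2 ratio of 0.36 ± 0.064. The other Wnt5a probe gave a log2 ratio of 0.67.

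Wnt11, another ligand of the outflow tract, was detected in lacZ-positive cells only, at 91.7 ± 5.29 against 57.1 ± 3.20 in total heart. Its normalized signal in lacZ-positive cells was under the lowest detected signal of the total heart array, so no fold can be given. Wnt2, expressed in the mouse in the inflow region of the early heart, had 210 ± 9.69 in total heart and 360 ± 14.8 in lacZ-positive cells, a log2 ratio of 0.49 ± 0.10. Wnt2 was just within the spread between probes.

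Wnt4 and Wnt9b, both known from kidney development, differed little. Wnt4 had a log2 ratio of 0.16 ± 0.15 by its brighter probe and 0.28 by the other. Wnt9b had -0.12 ± 0.17 and, by its other probe, -0.24. Wnt6, a ligand of epithelia, was detected in total heart only and was at least 1.14-fold lower in lacZ-positive cells, at 74.7 ± 4.14 against 81.0 ± 3.999.

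The other 11 ligand genes were detected on neither array: Wnt1, Wnt2b, Wnt3, Wnt3a, Wnt7a, Wnt8a, Wnt8b, Wnt9a, Wnt10a, Wnt10b and Wnt16. The nearest to the limit was Wnt16, with a lowest detection p-value of 0.0139 and a raw intensity of 80.7 in lacZ-positive cells. In the RefSeq gene order, 4 pairs of ligand genes are direct neighbours: Wnt6 and Wnt10a, Wnt9b and Wnt3, Wnt3a and Wnt9a, and Wnt10b and Wnt1. In 0 of these pairs were both genes detected. A ligand that was not detected may still be present below the background of its probe.

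Of 4 R-spondin genes, 2 were detected. Rspo1 had a raw intensity of 82.9 ± 5.98 in total heart and 167 ± 9.49 in lacZ-positive cells, 2.14-fold higher, at a log2 ratio of 1.10 ± 0.21 at percentile 97.1 of all detected genes. The probe was dim in total heart, and the value was 0.70 in the processed values the authors deposited, under 2-fold. Rspo1 was higher in lacZ-positive cells under all 8 alternative settings but past 2-fold in 5 of them.

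Rspo3, needed in the mouse embryo for vessel growth in the placenta, gave unlike values with its 2 probes, both annotated to the same transcript and detected on both arrays. One Rspo3 probe had 261 ± 14.9 in total heart and 310 ± 19.0 in lacZ-positive cells, a log2 ratio of -0.10 ± 0.14. The other Rspo3 probe had 275 ± 10.1 and 149 ± 5.40, a log2 ratio of -1.48 ± 0.092. The second value is past 2-fold lower and the first is near 0, so the gene's direction is uncertain: the count of lower members rests on the first probe, chosen for its higher mean signal. Rspo2 and Rspo4 were not detected.

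Of 10 Frizzled receptor genes, 8 were detected, 6 of them with a log2 ratio above 0. Fzd5, a receptor needed in the mouse for yolk sac vessels, had 626 ± 20.9 in total heart and 349 ± 19.5 in lacZ-positive cells. That is 2.52-fold lower, with a log2 ratio of -1.33 ± 0.10, and -0.93, under 2-fold, with no normalization between arrays. Fzd5 was read by 1 detected probe of 4, and the other probes were detected on neither array. The other 6 receptors detected on both arrays had log2 ratios from -0.021 to 0.49.

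Fzd1, Fzd2 and Fzd7, which form a subgroup of closely related receptors, were all detected in lacZ-positive cells. Fzd1 had 76.2 ± 5.21 in total heart, where it was not well above background, and 135 ± 8.78 in lacZ-positive cells, at least 1.74-fold higher. Fzd2 had 419 ± 20.5 and 738 ± 33.98, a log2 ratio of 0.45 ± 0.10. Fzd7 had 416 ± 24.1 and 551 ± 27.6, a log2 ratio of 0.022 ± 0.12. Fzd2 and Fzd7 were both within the spread between probes, and Fzd1 has a bound only.

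Among the other receptors, Fzd3, which acts in axon guidance in the mouse, had a log2 ratio of 0.49 ± 0.18 by its brightest probe, and its other 2 probes gave 0.26 and 0.088. Fzd6 had -0.021 ± 0.16 and -0.27 by its 2 probes. Fzd8 had 0.22 ± 0.13 and Fzd10 0.24 ± 0.16. The opposite-strand transcript Fzd10os had 82.8 ± 4.25 in total heart and 133 ± 7.30 in lacZ-positive cells, a log2 ratio of 0.66 ± 0.17. Fzd4 and Fzd9 were not detected, with Fzd4 just outside the limit at a detection p-value of 0.0128.

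Of both LRP coreceptors, Lrp5 lay past the spread between probes and Lrp6 within it. Lrp5 had 86.5 ± 5.10 in total heart and 154 ± 11.1 in lacZ-positive cells, a log2 ratio of 0.82 ± 0.20. It was read by 1 detected probe of 4. Lrp6 had 121 ± 5.42 and 186 ± 10.9, a log2 ratio of 0.41 ± 0.14.

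Of 6 ligand-binding inhibitors, 3 were detected, and the log2 ratios of Sfrp1 and Sfrp2 by their brightest probes were within the spread between probes. Sfrp1 had 1262 ± 36.9 in total heart and 2075 ± 64.9 in lacZ-positive cells, a log2 ratio of 0.31 ± 0.063, and 0.58 by its second probe. Sfrp2 had 136 ± 7.01 and 205 ± 9.05, a log2 ratio of 0.35 ± 0.13. Wif1, not well above background in total heart at 74.4 ± 4.05, was at least 1.15-fold higher at 101 ± 6.91. Frzb, Sfrp4 and Sfrp5 were not detected.

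Of 4 Dickkopf genes only Dkk3 was detected, a divergent member that is not a typical coreceptor antagonist. Dkk3 had 1368 ± 58.3 in total heart and 2058 ± 69.7 in lacZ-positive cells, a log2 ratio of 0.18 ± 0.080, and its second probe detected on both arrays gave 0.23. Dkk3 was thus near level once the arrays were normalized. Dkk1, Dkk2 and Dkk4 gave raw intensities between 40.2 and 56.3 on the total heart array, among the background.

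Both Axin genes were within the spread between probes. Axin2, a feedback inhibitor induced by canonical signalling, had 202 ± 9.49 in total heart and 280 ± 11.1 in lacZ-positive cells, a log2 ratio of 0.15 ± 0.10. Axin1, the scaffold of the destruction complex, had 835 ± 25.7 and 1340 ± 42.4 by its brighter probe, a log2 ratio of 0.28 ± 0.066. Its dimmer probe, near background, gave -0.33 ± 0.19, so the sign of Axin1 depended on the probe.

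Among the TCF/LEF factors, Tcf7l1, which acts mostly as a repressor, had 975 ± 40.1 in total heart and 2004 ± 89.6 in lacZ-positive cells, a log2 ratio of 0.64 ± 0.090, past the spread between probes. That probe is annotated to one of 2 transcripts listed for Tcf7l1, and the probe of the other transcript was detected on neither array. Tcf7l2 had 404 ± 21.97 and 500 ± 24.3, a log2 ratio of -0.062 ± 0.11, by the 1 detected probe of 6. Lef1, itself a frequent target of the canonical branch, was at the detection limit, with 78.7 ± 5.30 in total heart, not well above background, and 96.9 ± 7.51 in lacZ-positive cells, at least 1.08-fold higher.

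For 9 members more than 1 probe was detected on both arrays. The probes of Dkk3, Wnt4 and Wnt9b lay within 0.12 of each other on the log2 scale. Those of Fzd6, Sfrp1, Wnt5a and Fzd3 spanned 0.25 to 0.40, with the same sign within each gene. Axin1, at 0.61, and Rspo3, at 1.38, spanned more, and Axin1 alone changed sign between its probes.

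**Figure D3:**
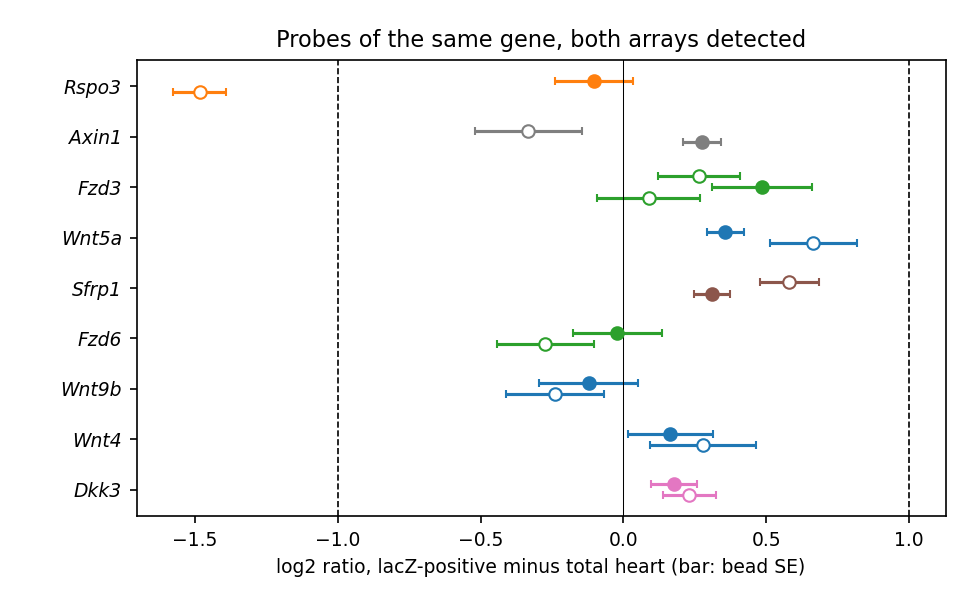
Log2 ratio, lacZ-positive minus total heart (x axis), of each probe detected on both arrays, for the 9 members with more than 1 such probe; bars are bead standard errors, filled points are the probes that stood for the gene, and dashed lines mark 2-fold. The pair of Rspo3 probes lies farthest apart, at -0.10 and -1.48.

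**Figure D4:**
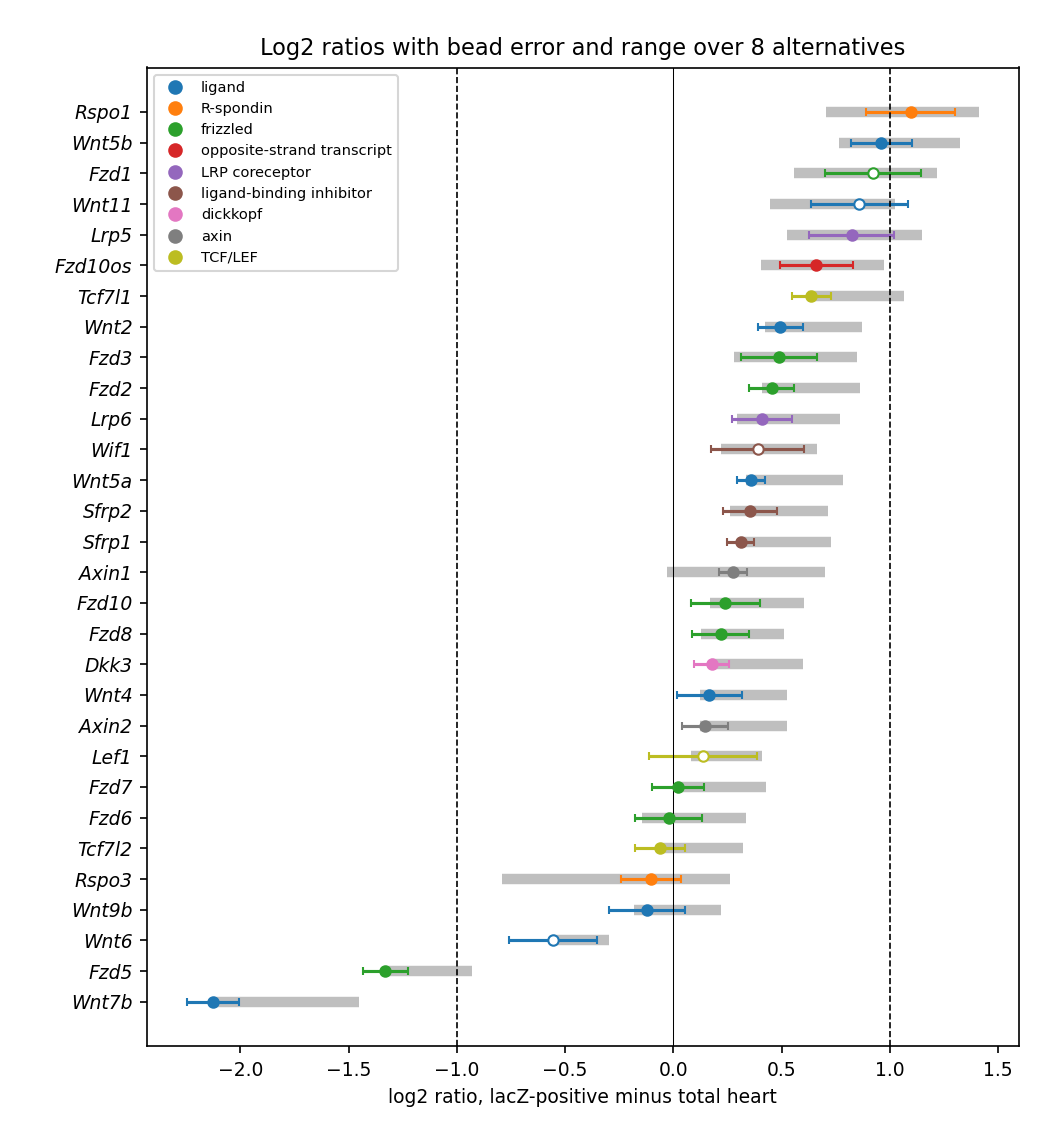
Log2 ratio, lacZ-positive minus total heart (x axis), of the 30 detected members in order, with bead standard errors as thin bars and the span of the value over 8 alternative ways of processing as grey bars; open points were detected on 1 array only. Wnt7b stays below the 2-fold line throughout, from -2.13 to -1.45, whereas the spans of Rspo1 and Fzd5 cross it.

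A wider set of pathway genes outside the members was described in the same way. Of 108 such genes on the array, 75 were detected, 5 of them at least 2-fold higher (6.7%) and 2 at least 2-fold lower (2.7%), with a median log2 ratio of 0.33. Together these were 9.3%, against 10.3% of all detected genes (3.82% higher and 6.44% lower). The higher ones were Sulf1, Msx1, Notum, Cthrc1 and Bmp4, and the lower ones Kremen1 and Frat2. The lists group genes by function but were chosen with earlier results of these data known, and some genes stand on 2 of them.

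Secreted and membrane modulators had 2 of 7 detected genes past 2-fold higher. Sulf1, an enzyme that trims heparan sulfate and so changes how ligands are held at the cell surface, had 537 ± 18.4 in total heart and 1924 ± 55.7 in lacZ-positive cells, 2.82-fold higher at a log2 ratio of 1.49 ± 0.068. Its second detected probe gave 1.12. Cthrc1, a secreted protein that binds Wnt and Frizzled, was 2.07-fold higher, with a log2 ratio of 1.05 ± 0.079. The other Cthrc1 probe was detected on neither array. The related sulfatase Sulf2 had a log2 ratio of -0.56 ± 0.084.

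Notum, an enzyme that removes the lipid from Wnt ligands, had 95.5 in total heart and 203 in lacZ-positive cells by 1 detected probe of 3, 2.12-fold higher at a log2 ratio of 1.09 ± 0.13. The ligand carrier Wls and the acyltransferase Porcn had log2 ratios of 0.33 and -0.043. Both were within 2-fold.

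Of 16 transcripts often induced by the canonical branch, 14 were detected, 3 of them at least 2-fold higher (21.4%, against 3.82% of all detected genes) and 0 lower (against 6.44%), with a median log2 ratio of 0.53. The higher ones were Msx1 (1.17 ± 0.087), Notum and Bmp4 (1.01 ± 0.069). Nkd1 had 0.66, Sp5 0.27 and Ccnd1 0.77, none past 2-fold. Myc, detected in total heart only, and Tbx3, at -0.58, were below 0. Msx1, a homeobox gene, also stands on the list of cushion and valve mesenchyme markers. Axin2 and Lef1, also induced by the canonical branch, stand among the members and not on this list. Axin2 had a log2 ratio of 0.15, and Lef1 was at least 1.08-fold higher. Whether the canonical branch was more active in lacZ-positive cells was not tested.

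Kremen1, a receptor for Dickkopf proteins, had 257 ± 15.0 in total heart and 156 ± 9.41 in lacZ-positive cells, 2.43-fold lower at a log2 ratio of -1.28 ± 0.15. It was read by a single detected probe, and its other probes were detected on neither array. The R-spondin receptor genes Lgr4, Lgr5 and Lgr6 and the ubiquitin ligase genes Rnf43 and Znrf3, on which R-spondins act, were detected on neither array. The same held for Rhoa, Csnk1a1, Gsk3a, Dvl2 and Dvl3, among others of the wider set. A gene that was not detected may still be present below the background of its probe. Frat2, a GSK3-binding protein gene, lay at the 2-fold line with -1.004 ± 0.12. Of the 7 pathway genes past 2-fold, Sulf1 and Msx1 stayed past it under all 8 alternatives, and the others were under it in at least 2 of them. Of 23 detected cytoplasmic genes, 22 were within 2-fold, with Ctnnb1, which encodes beta-catenin, at 0.32 ± 0.078. Of 9 detected genes of the planar polarity branch and 14 detected nuclear partners, 0 were past 2-fold, with Invs at 0.99 and Pygo1 at 0.83 the highest of each.

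**Figure D5:**
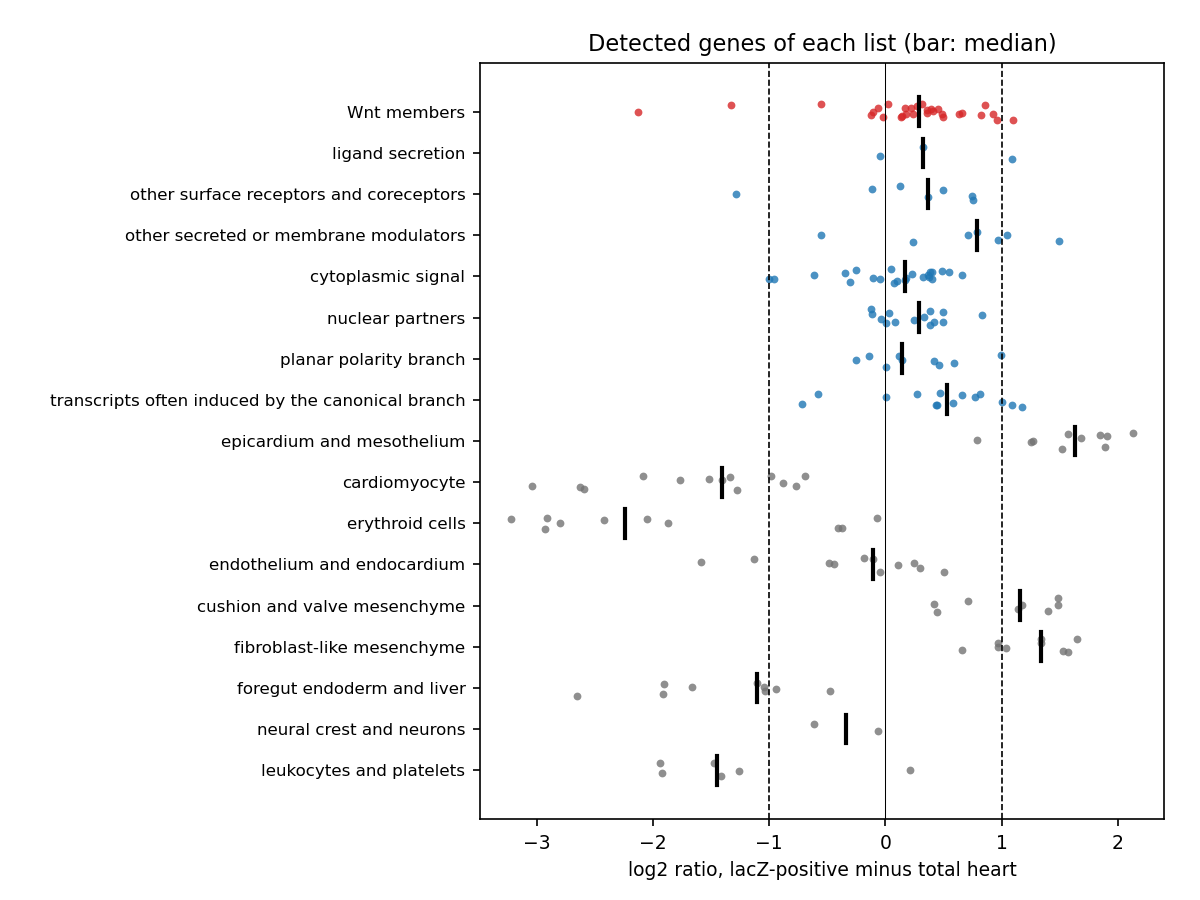
Log2 ratio, lacZ-positive minus total heart (x axis), of every detected gene of each list: Wnt members in red, other Wnt pathway lists in blue, cell type markers in grey; black bars are medians and dashed lines mark 2-fold. The members centre on 0.29, between the epicardial markers at 1.63 and the cardiomyocyte markers at -1.40. The median of all detected genes, 0.044, also lies between these marker lists.

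Markers of several cell types were compared between the arrays in the same way. Of 9 detected markers of foregut endoderm and liver, of 11 on the array, 7 stood past 2-fold lower at their measured values. These markers had log2 ratios from -2.65 to -0.48, with a median of -1.10. Their summed raw intensity was 3072 in total heart and 1899 in lacZ-positive cells. Of that list, Foxa1, Shh and Cdh1 were not well above background in the lacZ-positive sample, and Foxa2 and Epcam in neither. Foxa1, Shh and Cdh1 passed the detection limit through total heart only, so they could hardly have come out higher. At their bounds Shh was at least 2.18-fold lower, Foxa1 at least 1.79-fold and Cdh1 at least 1.45-fold. Foxa1 and Cdh1 thus cannot be said to pass 2-fold.

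Cardiomyocyte markers had a median log2 ratio of -1.40, and 5 of 6 detected leukocyte and platelet markers stood past 2-fold on the lower side, with a median of -1.45. The lower ones were the platelet markers Pf4, Ppbp, Gp9 and Itga2b and the leukocyte marker Lyz2. The leukocyte marker Csf1r was at 0.21, and Ptprc and C1qa were detected on neither array. Erythroid markers had a median of -2.24 and ran up to -0.075 for the embryonic globin gene Hbb-y. Endothelial markers lay on both sides of 0, from -1.59 to 0.50 with a median of -0.11, and 2 of 11, Cldn5 and Robo4, were past 2-fold lower. Epicardial markers had a median of 1.63, with a summed raw intensity of 4644 in total heart and 19684 in lacZ-positive cells. Markers of cushion and valve mesenchyme, at a median of 1.16, and of fibroblast-like mesenchyme, at 1.34, were higher as well. The part of these cell types in the values of the Wnt members was not tested.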

How the data were processed

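RNA of 2 samples, 1 array each, was labelled with biotin and read on Illumina mouse bead arrays, per the labels' protocols. The submitters' processing notes name GenomeStudio without a version. For every probe the authors deposited an intensity averaged over beads, its bead standard error, the number of beads and a detection p-value, per the file headers. These intensities were on a linear scale, neither background-subtracted nor scaled between arrays. A second deposited table held processed intensities whose method is not given in the sources used here. Their rank correlation with the raw values was 1 on each array.

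Background was corrected with normexp from the detection p-values, an offset of 16 was added, and values were quantile-normalized between arrays and log2-transformed (nec, limma 3.58.1, R 4.3.3). The steps were tested on simulated data. A gene was analysed if a probe had a detection p-value under 0.01 on at least 1 array, and its detected probe with the highest mean signal stood for it. Errors are bead standard errors carried to the log2 scale and leave out the spread between animals and isolations. For a gene detected on 1 array, a bound is given against the higher of the dim probe and the lowest detected signal of that array, while counts use the measured value. No p-value between groups was computed.

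All 51 member symbols were found by gene ID in a RefSeq table. Of the probes, 34885 had 1 symbol, 18 several and 10378 none in the annotation, and only those with 1 were named. Every member could be named, and of the other pathway genes those past 2-fold, with others given as examples of their list after their values were seen. The members and lists were chosen with earlier results of these data known.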

Additional observations from a re-analysis of the deposited data

How the results depend on the processing

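With no normalization between arrays the median log2 ratio of all genes became 0.42 in place of 0.044, and all genes at least 2-fold numbered 1020 higher and 381 lower (371 and 626 in the main analysis). Higher genes then made up 72.8% of genes past 2-fold, against 37.2%. Members past 2-fold became 6 higher and 1 lower, with a median of 0.68, and other pathway genes 16 higher and 0 lower. With median scaling, 818 genes, 4 members and 12 other pathway genes were higher, 0 other pathway genes were lower, the members' median was 0.60, and higher genes made up 66.1%. Median scaling shifts each array by a constant, so these 2 settings are the same once taken relative to the median of all genes. Taken so, they gave 0 members higher and 2 lower, Rspo1 at 0.99, Fzd5 at -1.35 and Wnt7b at -2.22. Without background correction 225 genes, 0 members and 2 other pathway genes were higher and 1 other pathway gene was lower. With an offset of 50 these were 223, 0, 2 and 1. The processed values the authors deposited gave 219 genes and 0 members higher, 404 genes lower and 1 other pathway gene lower. Rspo1 was 0.75, 0.76 and 0.70 in these 3, and Fzd5 was -0.93 with no normalization. Wnt7b stayed past 2-fold lower in all 8 alternatives. The other detection limits and the mean over probes moved no such count of members by over 1.5 times. The cause of each shift was not tested. A change was read as small when under the SD of 0.25 between probes of a gene. No paired analysis was possible because each group had 1 array. Signal over background limits the 21 members with a mean log2 signal under 8, and 1 array a group leaves every value without a replicate check.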
